A study of Homo sapiens with 4 samples.

Results

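Zinc handling was followed through metallothionein, transporter and regulator genes in LN229 cells, a human glioblastoma line, after knockdown of *SOX2*. The set, given by symbol, is 10 of the 20482 gene symbols on the array and holds 7 metallothioneins (*MT1E*, *MT1F*, *MT1G*, *MT1H*, *MT1X*, *MT2A* and *MT3*), the zinc transporters *SLC30A1* and *SLC39A10*, and *MTF1*, the metal-sensing transcription factor. All array probes carrying 1 of these symbols were taken, which gave 13 of the 33096 gene probes. A probe was compared where its signal exceeded its noise by more than 3 times (S/N over 3) on both mock arrays or on both knockdown arrays, which held for 11 of the 13 and for 21256 probes of the array. One group of cells was transfected with siRNA against *SOX2* and the other, called mock knockdown, with a non-targeting siRNA, and both were grown in DMEM. Each group had 2 arrays, which the methods describe as separate transfections. The knockdown was transient and in 1 cell line, and the methods give a pair of pre-designed *SOX2* siRNAs without saying which was used for the arrays. The question was which genes depend on *SOX2*, a transcription factor of stem cells that is expressed again in gliomas.

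Metallothioneins are small cysteine-rich proteins that bind zinc and copper in the cytosol and buffer the free metal. When zinc is plentiful, MTF1 binds short metal response elements in promoters and switches on metallothionein genes and *SLC30A1*. *SLC30A1* encodes ZnT1, which moves zinc out of the cell across the plasma membrane, while *SLC39A10* encodes ZIP10, which moves zinc in the opposite direction, so that only *SLC30A1* of the set is an exporter.

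The bases before the gene starts of *SLC30A1*, *MT2A* and *MT1X* are shown because these genes share a described regulator and, as given further on, lay on different sides of the mock level. Capitals mark every match to the core of the metal response element, searched as TGCACNC and TGCGCNC on both strands. The sequences are RefSeq's (GRCh38.p14), each 250 bases long, ending at the base before the gene start and read on the strand of the gene. The window of *SLC30A1* is chr1:211579162-211579411 (minus strand), that of *MT2A* is chr16:56608334-56608583 (plus strand) and that of *MT1X* is chr16:56682220-56682469 (plus strand).
SLC30A1: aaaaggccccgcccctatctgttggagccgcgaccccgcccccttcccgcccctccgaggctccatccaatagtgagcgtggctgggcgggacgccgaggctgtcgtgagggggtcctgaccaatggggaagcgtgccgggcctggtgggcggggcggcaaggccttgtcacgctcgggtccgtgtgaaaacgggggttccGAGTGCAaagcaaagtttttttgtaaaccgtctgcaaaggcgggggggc
MT2A: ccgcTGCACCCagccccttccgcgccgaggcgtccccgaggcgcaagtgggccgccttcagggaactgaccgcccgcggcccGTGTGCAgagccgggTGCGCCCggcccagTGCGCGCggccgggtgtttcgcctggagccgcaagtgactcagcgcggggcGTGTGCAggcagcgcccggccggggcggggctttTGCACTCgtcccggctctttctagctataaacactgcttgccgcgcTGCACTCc
MT1X: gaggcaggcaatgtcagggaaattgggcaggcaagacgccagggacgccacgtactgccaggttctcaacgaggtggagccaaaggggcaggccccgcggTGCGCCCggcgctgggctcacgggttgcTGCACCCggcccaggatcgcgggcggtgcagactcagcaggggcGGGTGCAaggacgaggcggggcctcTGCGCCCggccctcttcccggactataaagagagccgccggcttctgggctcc

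*MT2A* held 7 such cores and *MT1X* held 4, on both strands in each case, whereas *SLC30A1* held 1, on the strand opposite to the gene. A core was found in 24.8% of the 35116 windows of this kind in the table, at least 4 cores in 0.37% and at least 7 in 0.0313%. *MT1H* held 8 cores, and neither *MTF1* nor either of the 2 windows of *SLC39A10* held any. No matches overlapped each other in these windows. A match describes the letters and does not show that MTF1 is bound there, and of the 10 genes 6 had a window in the table.

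Signals are given as levels relative to the 75th percentile of the gene probes on the same array, so that a level of 1 is the 75th percentile. *SOX2* itself was at 0.467 and 0.701 on the mock arrays and at 0.209 and 0.149 on the knockdown arrays, a ratio of 0.307 (log2 change -1.69 ± 0.28 SE, limma adjusted p = 0.117). Its S/N was 5.17 and 13.56 on the mock arrays but 3.17 and 3.06 on the knockdown arrays, just above the cutoff of 3, so the size of this ratio is uncertain. One treatment label names SW620, a colon cancer line, so markers of both tissues were read. Of 14 probes of colon epithelial markers 5 were compared, those of *KRT8*, *KRT18*, *VIL1*, *CDX2* and *LGALS4*, and 3 of them (*KRT8*, *KRT18* and *VIL1*) had S/N over 3 on all 4 arrays. Another 5 of the 14 had S/N over 3 on no array, among them the only probes of *CDH1*, *CDH17*, *KRT20* and *MUC2*. Of 13 probes of glial or mesenchymal markers 10 were compared, *VIM*, *CD44* and *S100B* among them. Of these 10, 3 were higher and 4 lower on both knockdown arrays, against 21.2% and 25.8% of all probes, with a median log2 change of 0.02. In this list *FABP7* was lower at a ratio of 0.491 and *OLIG2* higher at a ratio of 1.34. Of the neuronal markers 3 probes, from only *SYT1* and *SNAP25*, were compared. All 3 were higher on both knockdown arrays (21.2% of all probes), 2 of *SYT1* at ratios of 1.59 and 1.67 and 1 of *SNAP25* at 1.12. The part of these markers in the results for the zinc genes was not tested. Of 6 probes of immune and 3 of endothelial markers, 1 and 0 were compared.

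No probe on the array passed limma's adjusted p of 0.05 (0 of 21256, or 0%), while 3626 had an unadjusted p under 0.05, and the members are therefore described by their values and by the 2-fold cutoff of the methods, which carries no test. After *SOX2* knockdown 2 of the 11 member probes lay more than 2-fold higher, 1 of *SLC30A1* and 1 of *MTF1*, and none lay more than 2-fold lower. Over all probes compared, 1.57% were more than 2-fold higher and 1.04% more than 2-fold lower. Both of these member probes also had an adjusted p under 0.1, as did 0.757% of all probes in the upward direction. The 2 groups did not overlap for 9 member probes. In 3 of these both knockdown arrays were above both mock arrays (21.2% of all probes) and in 6 they were below (25.8% of all probes). The median log2 change was -0.30 over the 11 member probes and -0.00119 over all probes. At an unadjusted p under 0.05 stood 3 member probes that were higher (7.9% of all probes) and 4 that were lower (9.16% of all probes). P-values here rest on the spread between 2 samples a group, which limma combines with a typical spread taken from all probes compared. In bulk RNA fewer cells of a kind cannot be told apart from less RNA per cell.

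**Figure D1:**
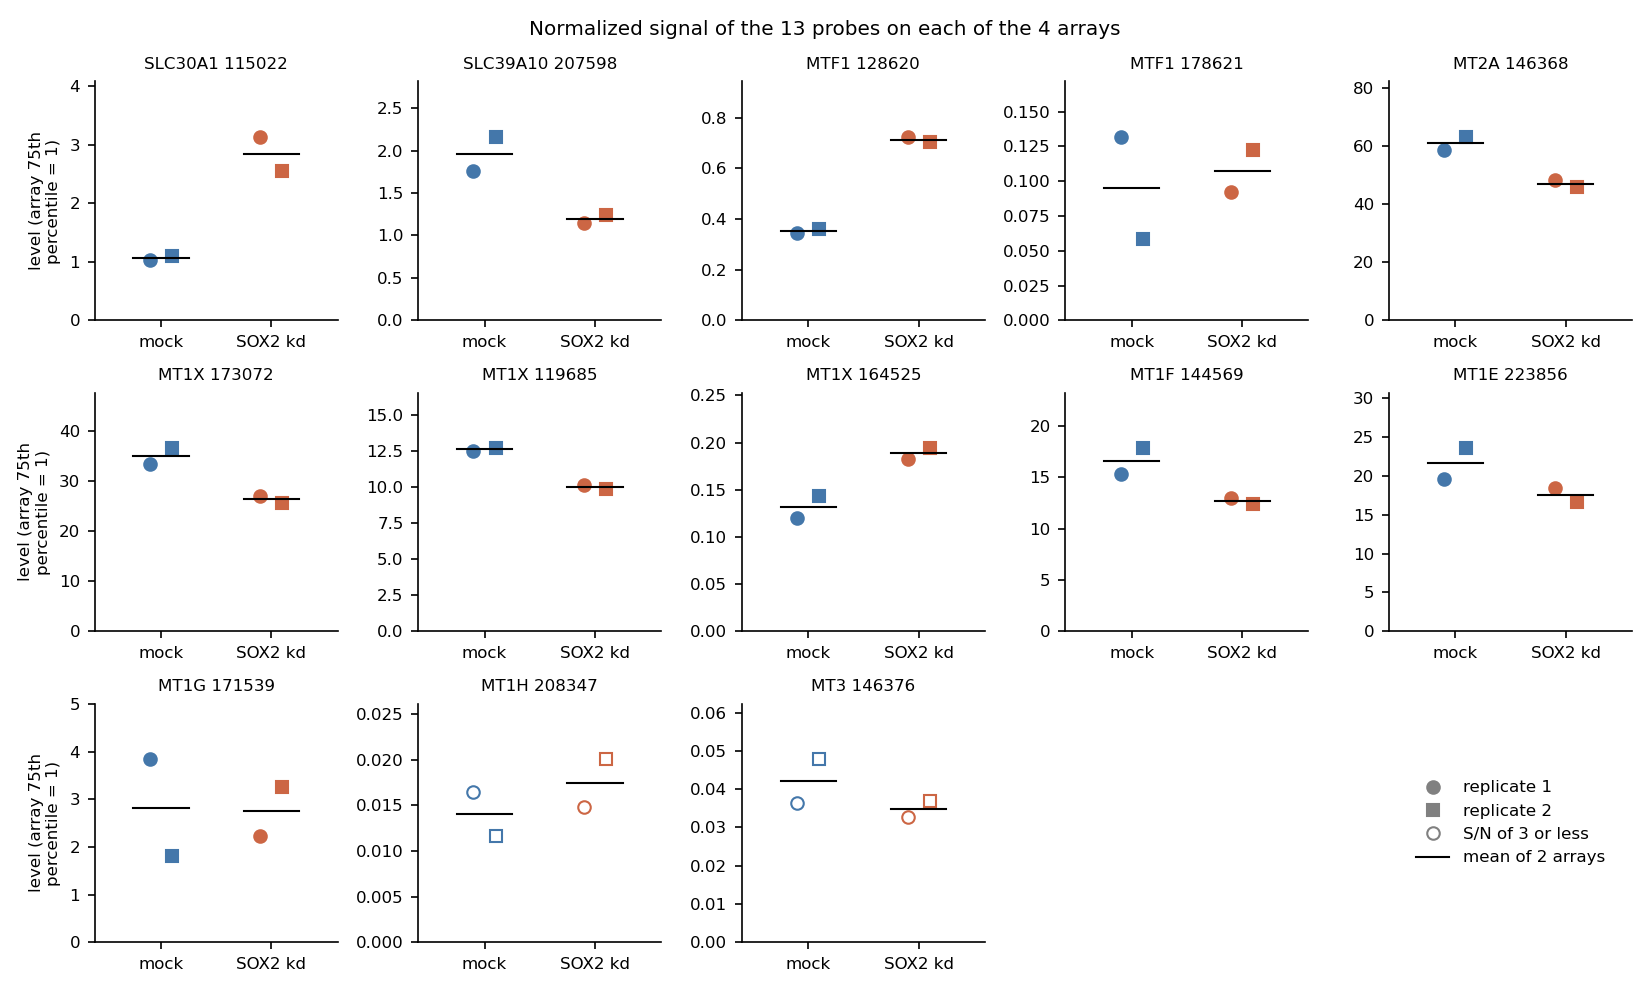
Level of each of the 13 probes on the 4 arrays, in units of the array's 75th percentile (linear axis from 0, own scale in each panel); symbols are replicates 1 and 2, bars are means of 2 arrays, and open symbols have S/N of 3 or less. *SLC30A1* and the brighter *MTF1* probe lie higher after *SOX2* knockdown, *SLC39A10* and 5 metallothionein probes lie lower, and *MT1H* and *MT3* are open on all 4 arrays.

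The zinc exporter *SLC30A1* had the largest difference of the set. Its single probe was at 1.03 and 1.10 on the mock arrays and at 3.14 and 2.56 on the knockdown arrays. Both knockdown arrays were above both mock arrays, with a mean of 2.85 ± 0.411 against 1.06 ± 0.0522 (SD, n = 2 each). The ratio was 2.68 and the log2 change 1.42 ± 0.16 (SE, 95% interval 0.98 to 1.85), with a limma adjusted p of 0.0884 over all probes. This gap was larger than that between replicates, which was 0.10 on the log2 scale in mock and 0.30 in knockdown cells. Of 19 alternative settings 12 could move this value, and in these the log2 change was between 1.27 and 1.56. The adjusted p was under 0.05 in 4 of the 19, at its lowest 0.000169. These were median scaling, no further scaling, the authors' processed table and a variance trend. All but the variance trend are nearly the same setting, as the array medians were already alike (1.01 to 1.02 in the signals, 0.1017 to 0.1023 in the authors' table). In these, every member probe had the same SE (0.288 to 0.291), which for *SLC30A1* was larger than the 0.16 as reported. The low p there does not reflect closer replicates of this probe.

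*MTF1*, the zinc sensor of the set, was read by a pair of probes that behaved differently. The brighter one (probe 128620) was at 0.347 and 0.362 in mock cells and at 0.726 and 0.703 in knockdown cells. Its replicates lay close together and the groups were apart, with a ratio of 2.02 and a log2 change of 1.01 ± 0.13 (SE, 95% interval 0.68 to 1.35, adjusted p = 0.0945). It stood at the edge of the 2-fold cutoff, with log2 changes of 0.98 to 0.99 when arrays were scaled to the median, left without further scaling or taken from the authors' processed table, in which its adjusted p was between 0.0227 and 0.0252. In those fits the SE was the same for all member probes (0.288 to 0.291), against 0.13 for this probe as reported. The dimmer one (probe 178621) was at 0.132 and 0.0581 in mock cells and at 0.0920 and 0.122 in knockdown cells. These values overlap, and the log2 change of 0.28 ± 0.44 (SE, adjusted p = 0.855) turned to -0.31 when mock replicate 2 was left out. When both probes were averaged under their shared gene ID, the log2 change was 0.88 ± 0.13 (SE, adjusted p = 0.107), below the cutoff.

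The zinc importer *SLC39A10* was lower. Its probe was at 1.76 and 2.16 on the mock arrays and at 1.15 and 1.25 on the knockdown arrays. The groups were apart, at a ratio of 0.611 (log2 change -0.71 ± 0.16 SE, 95% interval -1.14 to -0.27, adjusted p = 0.163), which is within 2-fold. In the 12 alternatives that could move it, the log2 change was between -0.85 and -0.56. S/N was 5.70 on mock replicate 1 and at least 7.72 on the other arrays, so this is the probe with the least certain readings among the transporters of the set. Among the members, *SLC30A1* and *SLC39A10* thus differed in opposite directions in these settings, although neither difference passed the test as reported.

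The metallothioneins gave 9 probes, of which 7 were compared, for 5 genes. All 5 probes with a mean level of 10 or more, those of *MT2A*, *MT1F*, *MT1E* and the 2 brighter probes of *MT1X*, were lower on both knockdown arrays than on both mock arrays, at ratios from 0.753 to 0.811. None was past 2-fold in either direction, and none had an adjusted p under 0.05 in any setting. Of the 7 probes, 5 had a lower and 2 a higher mean log2 signal after knockdown, with ratios of up to 1.43 and a median log2 change of -0.34. In the fit as reported the 95% intervals of those 5 bright probes reached no lower than -0.77, but intervals were wider in other settings, with the SE of *MT1X* probe 173072 at 0.13 as reported and at 0.29 with median scaling.

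*MT2A*, usually the most abundant human metallothionein, was at 58.9 and 63.3 in mock cells and at 48.3 and 45.9 in knockdown cells. The groups were apart at a ratio of 0.770 (log2 change -0.38 ± 0.13 SE, adjusted p = 0.264). *MT1X* probe 173072 was at 33.5 and 36.8 in mock and at 27.1 and 25.8 in knockdown cells, a ratio of 0.753 (log2 change -0.41 ± 0.13 SE, adjusted p = 0.244). The second bright *MT1X* probe (119685) was lower as well, at 12.5 and 12.8 in mock and at 10.2 and 9.86 in knockdown cells (log2 change -0.34 ± 0.12 SE, adjusted p = 0.287). The remaining and much dimmer *MT1X* probe (164525) lay on the other side. It was at 0.120 and 0.144 in mock and at 0.183 and 0.195 in knockdown cells, again without overlap (log2 change 0.52 ± 0.15 SE, adjusted p = 0.219). The 3 probes carry the same symbol and gene ID, and which transcripts each one reads was not tested.

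*MT1F* was at 15.3 and 17.9 in mock and at 13.0 and 12.4 in knockdown cells, a ratio of 0.765 (log2 change -0.38 ± 0.15 SE, adjusted p = 0.300). *MT1E* was at 19.6 and 23.6 in mock and at 18.4 and 16.7 in knockdown cells, a ratio of 0.811 (log2 change -0.30 ± 0.16 SE, adjusted p = 0.447). For *MT1E* the gap between the groups was small, as the lower mock array and the higher knockdown array were at 19.6 and 18.4. *MT1G* did not separate the groups, with 3.85 and 1.80 in mock and 2.24 and 3.26 in knockdown cells. Its log2 change of 0.03 ± 0.43 (SE, 95% interval -1.11 to 1.18, adjusted p = 0.987) moved to -0.51 without mock replicate 2 and to 0.58 without mock replicate 1, so no direction can be given for it.

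*MT1H* and *MT3*, the latter known as the metallothionein of the brain, had S/N over 3 on none of the 4 arrays. *MT1H* was at 0.0165 and 0.0116 in mock and at 0.0148 and 0.0201 in knockdown cells, and *MT3* at 0.0363 and 0.0480 in mock and at 0.0327 and 0.0369 in knockdown cells. These readings are not well above background and no fold is given for them.

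**Figure D2:**
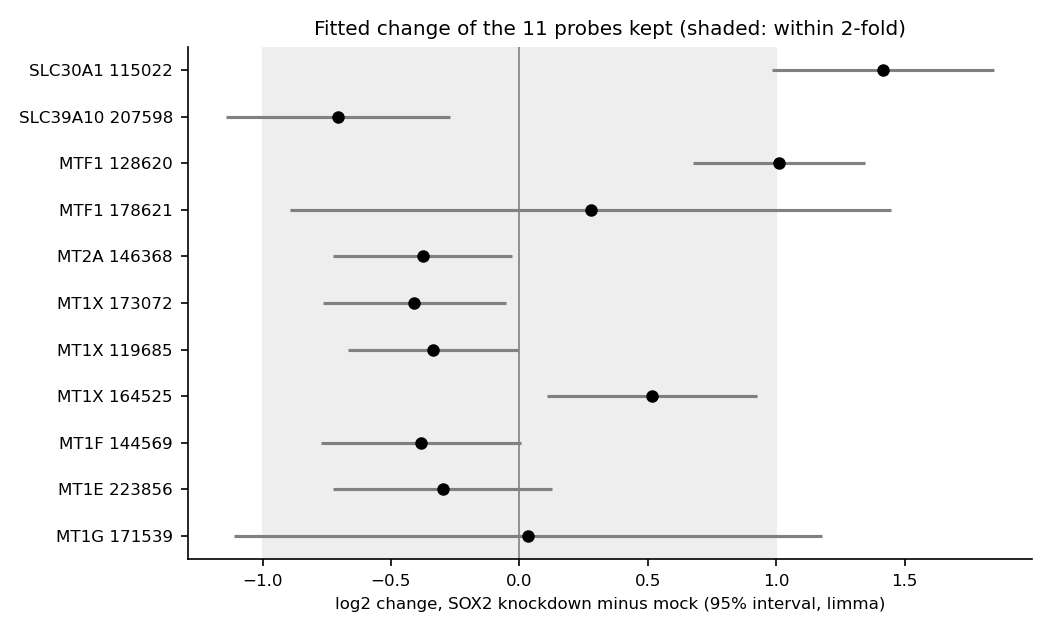
Fitted log2 change (*SOX2* knockdown minus mock, x axis) of the 11 member probes compared, with its 95% interval from limma, and the range within 2-fold shaded. *SLC30A1* at 1.42 and *MTF1* probe 128620 at 1.01 lie beyond the shading, and the 5 bright metallothionein probes lie between -0.41 and -0.30.

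The 5 bright metallothionein probes were set beside all probes of like brightness. Of the 1595 probes with a mean level of 10 or more, 34.9% were lower on both knockdown arrays than on both mock arrays and 16.1% were higher, and their median log2 change was -0.06. A ratio as low as that of *MT1E* (0.811) was seen in 165 of them, or 10.3%. With quantile normalization, which gives all arrays the same distribution, the 5 bright metallothionein probes had log2 changes between -0.36 and -0.26. With normexp, a background correction of the raw readings, they ran from -0.46 (*MT1F*) to -0.18 (*MT1E*), and *MT2A* was at -0.21.

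No member probe carried more than 1 symbol, although 605 probes on the array do. The metallothionein probes are linked through the Celera gene IDs of the array, by which the methods averaged probes before the 2-fold cutoff. One ID (hCG2025554) joined the probes of *MT2A* and *MT1E* with 2 probes of *MT1A* and 1 of *MT1M*, and another (hCG2025559) joined *MT1F* with *MT1H*. Averaging over these IDs gave log2 changes of -0.31 ± 0.14 (SE, adjusted p = 0.362) and -0.38 ± 0.14 (SE, adjusted p = 0.295), so that *MT1H* took on the value of *MT1F*. The ID of *MT1X* (hCG26614.2) joined its 3 probes with an unnamed one and gave -0.34 ± 0.12 (SE, adjusted p = 0.267), and the opposite sign of the dim probe was lost. Metallothionein transcripts of the MT1 group and MT2A are very similar in sequence, and how much a probe of 1 gene reads from its neighbours was not tested, as probe sequences were not used here.

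The metallothionein genes lie side by side on the long arm of chromosome 16, in the RefSeq order *MT4*, *MT3*, *MT2A*, *MT1L*, *MT1E*, *MT1M*, *MT1JP*, *MT1A*, *MT1B*, *MT1F*, *MT1G*, *MT1H* and *MT1X*, with further pseudogenes between them. The array lists *MT1JP* as *MT1J*. Of 8 probes of the genes in this cluster outside the set, 7 were compared, and 2 of these, both of *MT1A*, were lower on both knockdown arrays. Over the array this held for 25.8% of all probes and for 34.9% of those with a mean level of 10 or more, as both *MT1A* probes have. The *MT1A* probe with the larger difference was at 22.5 and 24.1 in mock and at 19.4 and 18.4 in knockdown cells (log2 change -0.30 ± 0.13 SE, adjusted p = 0.346). The brighter *MT1A* probe barely separated the groups, at 36.6 and 45.7 in mock and at 36.0 and 33.2 in knockdown cells (limma adjusted p = 0.570). The other 5, of *MT1B*, *MT1J*, *MT1L*, *MT1M* and *MT4*, overlapped between the groups and had ratios from 0.858 to 1.09. Among them *MT1L* was bright as well, at 12.9 and 19.1 in mock and at 13.5 and 15.3 in knockdown cells. The cluster thus held genes with separated and with overlapping groups, as does the array at large, and whether these genes differ from each other was not tested.

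The other transporters of zinc lay within 2-fold. The remaining ZnT proteins (SLC30 family) move zinc out of the cytosol, mostly into vesicles and the Golgi. Of their 6 probes compared, none passed 2-fold, and the largest separated difference was that of *SLC30A5* (ZnT5), at 1.95 and 2.05 in mock and at 1.62 and 1.58 in knockdown cells (log2 change -0.32 ± 0.13 SE, adjusted p = 0.312). The second *SLC30A5* probe overlapped between the groups at a ratio of 0.987. The remaining ZIP proteins (SLC39 family) move zinc into the cytosol, and of their 13 probes 5 were lower and 2 higher on both knockdown arrays, against 25.8% and 21.2% of all probes. The largest of these differences was that of *SLC39A6* (ZIP6), the closest relative of *SLC39A10* and known to form a complex with it. *SLC39A6* was at 3.15 and 3.10 in mock and at 1.90 and 1.78 in knockdown cells, a ratio of 0.589 (log2 change -0.76 ± 0.13 SE, adjusted p = 0.117), beside 0.611 for *SLC39A10*. The median log2 change was -0.10 over the ZnT probes and -0.13 over the ZIP probes.

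Genes that answer to metal and oxidative stress gave 13 probes, of which 2 were more than 2-fold higher (1.57% of all probes) and 8 in all were higher on both knockdown arrays (21.2% of all probes). *HMOX1*, the heme-degrading enzyme that heavy metals and oxidants induce, was at 1.19 and 1.36 in mock and at 6.33 and 5.67 in knockdown cells. The groups were far apart, at a ratio of 4.69 (log2 change 2.23 ± 0.15 SE, adjusted p = 0.0640). *GCLM*, a subunit of the enzyme that starts glutathione synthesis, was at 2.20 and 3.31 in mock and at 5.77 and 6.14 in knockdown cells (ratio 2.16, adjusted p = 0.141). Beside these, no metallothionein probe was past 2-fold, and the median log2 change was 0.16 over the stress probes against -0.34 over the 7 metallothionein probes of the set.

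**Figure D3:**
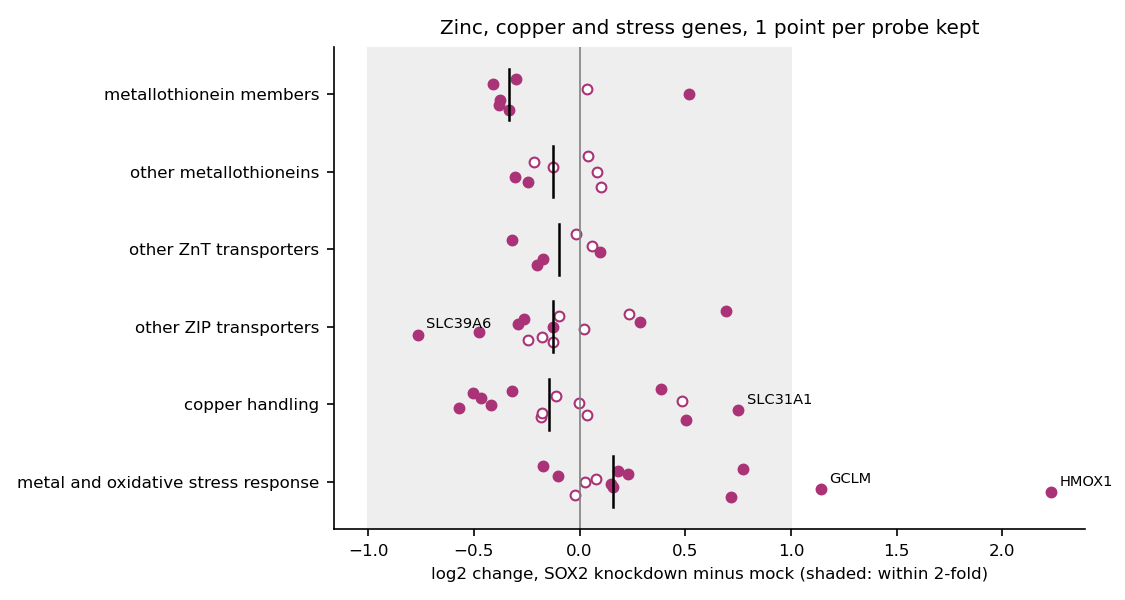
Log2 change (*SOX2* knockdown minus mock, x axis) of single probes in 6 gene lists; filled points have groups that do not overlap, open points overlap, bars are list medians and the range within 2-fold is shaded. *HMOX1* and *GCLM* lie beyond the shading, and the metallothionein members have their median at -0.34.

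Among the named probes whose pattern over the 4 arrays was most like that of *SLC30A1* were those of *C10orf81*, *FLJ14959* and *NFIL3* and a probe shared by *IGHA2*, *IGHA1* and *MGC27165*. Likeness was the root mean square difference of log2 signals centred on the mock mean, which was between 0.04 and 0.08 for these probes. *NFIL3*, a bZIP transcription factor, was at 1.07 and 1.26 in mock and at 3.31 and 2.82 in knockdown cells, a ratio of 2.63. With 4 arrays many probes can share a pattern, and the ranking is a description.

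**Figure D4:**
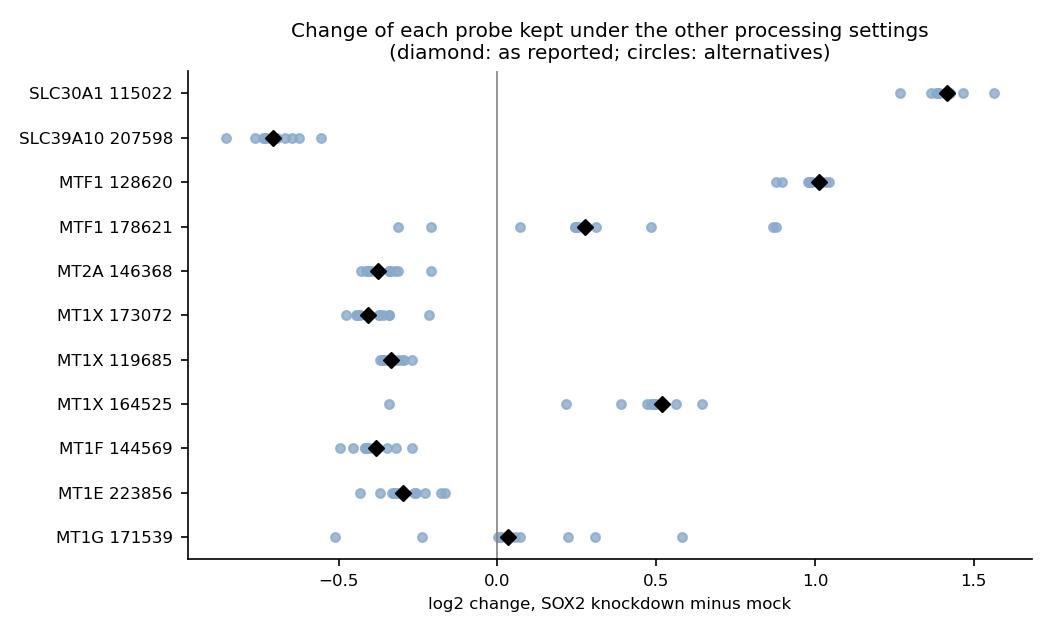
Log2 change (*SOX2* knockdown minus mock, x axis) of the 11 member probes as reported (diamonds) and under 19 other settings (circles). *SLC30A1* stays between 1.27 and 1.56 and *SLC39A10* between -0.85 and -0.56, while *MT1G* runs from -0.51 to 0.58.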

How the data were processed

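Total RNA was biotin-labelled and hybridised to 1-colour chemiluminescent oligonucleotide arrays. The deposited scanner files give a normalized signal intensity per feature and, per the file headers, an S/N score, and the scanner software is not given in the sources used here. Deposited ratios per probe were processed by the authors, per the methods in GeneSpring (each array to its 75th percentile, each gene to its median). The table of these ratios served as an alternative, but its values do not show that scaling. Its array medians were alike (0.1017 to 0.1023), as were those of the signals. Its log2 changes of *SLC30A1* and *SLC39A10* (1.392 and -0.7287) lay near those without further scaling (1.388 and -0.7324). With 75th percentile scaling they were 1.415 and -0.7053. The table is therefore not an independent check. The members, gene lists and motif were chosen with earlier results of these data known.

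Here control features and 210 probes with a flag of 5000 or more were left out. The normalized signal was divided by the 75th percentile of each array, floored at 0.01 and put on the log2 scale. Probes with S/N over 3 on both arrays of a group were tested per probe with limma (version 3.58.1, R 4.3.3; two-sided, no replicate block, Benjamini-Hochberg over 21256 probes), after the fit had been tested on simulated data. The simulated probes all had the same spread, unlike the real ones, so that test could not show how the fit handles unequal spreads. Fold changes are ratios of linear means. S/N over 3 was seen for 63.5% to 69.0% of probes per array, and the 2 arrays a group limit the precision. Groups came from the labels' source names. All probes of the members were named, with *SOX2*, those probes of the other lists past 2-fold (or else the largest separated difference in each list) and the 5 probes most like *SLC30A1*, of which 1 is not reported here. Symbols are those of the array, which are old. Promoter windows and gene order are RefSeq's (GRCh38.p14).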

Additional observations from a re-analysis of the deposited data

How the results depend on the processing

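*SLC30A1* and *MTF1* probe 128620 stayed higher, and *SLC39A10* and the 5 bright metallothionein probes lower, in the 12 of 19 alternatives that moved their values (floors, S/N filters, the block and the variance model leave the log2 changes of these probes as they are). Signs turned for *MTF1* probe 178621 (-0.21 with normexp and -0.31 to 0.87 with 1 array left out), for *MT1X* probe 164525 (-0.34 averaged by gene ID) and for *MT1G* (-0.51 to 0.58 with 1 array left out, and -0.24 without knockdown replicate 2). Limma called 0 probes as reported, 826 with median scaling, 776 without further scaling, 758 in the authors' table, 287 with a variance trend, 5 with S/N over 3 on all 4 arrays and 241 at an adjusted p under 0.1, and the cause was not tested. With median scaling, no further scaling, the authors' table and the variance trend, *SLC30A1* had log2 changes of 1.38, 1.39, 1.39 and 1.42 with adjusted p of 0.000171, 0.000207, 0.000169 and 0.0258, and *MTF1* probe 128620 had 0.98, 0.99, 0.99 and 1.01 with 0.0231, 0.0252, 0.0227 and 0.0419. Except under the variance trend, all member probes shared the same SE in each of these fits (0.288, 0.291 and 0.288). As reported, their SEs ran from 0.124 to 0.438. With a shared SE, p among the member probes follows the size of the log2 change and not each probe's own replicates. All probes past 2-fold numbered 554 as reported, 220 with normexp, 363 with a floor of 0.05, 1373 without the S/N filter, 302 with S/N over 3 on all 4 arrays, 2234 at a 1.5-fold and 119 at a 3-fold cutoff, and 682 to 932 with 1 array left out. Member probes past 2-fold numbered 1 instead of 2 with median scaling, no further scaling, the authors' table, the assay-normalized signal, normexp and gene ID averaging, 0 at 3-fold, and 1 to 2 with 1 array left out. The member median of -0.30 became -0.26 with quantile normalization or the assay-normalized signal, -0.33 with median scaling, -0.21 with normexp, -0.27 without the S/N filter, and -0.36 to -0.24 with 1 array left out. Same-numbered arrays are linked only by their number, and their deviations from the group means ran in opposite directions across probes (r = -0.48). Mock replicate 1 thus tended to deviate like knockdown replicate 2, and mock replicate 2 like knockdown replicate 1, for a reason that was not tested. The 75th percentile of the signal, used for scaling, was also alike in these pairs. It was 6 on mock replicate 1 and 5.91 on knockdown replicate 2, and 6.8 on mock replicate 2 and 6.64 on knockdown replicate 1. With the replicate number as a block limma called 0 probes. A crossed pairing of the numbers, chosen after seeing the data, also called 0, and 2105 at an adjusted p under 0.1. Every member probe compared had S/N over 3 on all 4 arrays, so none passed the S/N filter through 1 group only.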

Other observations

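Copper handling, which shares the metallothioneins as a buffer, gave 14 probes, none past 2-fold, of which 3 were higher and 5 lower on both knockdown arrays, against 21.2% and 25.8% of all probes. *SLC31A1*, which encodes the copper importer CTR1, was higher on both of its probes. The probe with the larger difference was at 0.500 and 0.525 in mock and at 0.910 and 0.817 in knockdown cells (log2 change 0.75 ± 0.14 SE, limma adjusted p = 0.124), and the other had a ratio of 1.42. The median log2 change over the 14 probes was -0.14.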
